A study of Mus musculus with 7 samples.

Results

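The transcripts described here encode 10 proteins that store maternal mRNA and control its translation in the mouse oocyte. They were taken by name, from a list drawn up with earlier results of these data known: Cpeb1, Ybx2, Zar1, Zar1l, Lsm14b, Ddx6, Eif4e1b, Eif4enif1, Pabpc1l and Pabpn1l. They are 10 of the 37620 genes in the deposited table, of which 18300 had a value in at least 1 oocyte. All 10 were among the 8033 genes with FPKM (fragments per kilobase of gene, scaled to the reads of the library) of at least 1 in at least 3 oocytes.

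A growing oocyte makes mRNA that it will use only after transcription has stopped, and much of it is kept silent with a short poly(A) tail. CPEB1 binds the cytoplasmic polyadenylation element (CPE) near the 3′ end and can repress an mRNA or, once phosphorylated, have its tail lengthened. YBX2 (also called MSY2), ZAR1, ZAR1L, LSM14B, DDX6 and 4E-T (encoded by Eif4enif1) belong to ribonucleoprotein particles that hold mRNA untranslated, EIF4E1B is an oocyte form of the cap-binding protein, and PABPC1L and PABPN1L are oocyte and embryo forms of the poly(A)-binding proteins.

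The series measured RNA in 7 single oocytes arrested at metaphase of meiosis 2 (MII), each its own library. WT1, WT2 and WT4 were Hiraf/f, with floxed Hira alleles and no Cre, and KO1 to KO4 were Hiraf/f, Zp3-Cre, so that the floxed alleles are common to both genotypes and Cre is driven by a promoter active in growing oocytes. Hira encodes a chaperone that deposits the histone variant H3.3, and the comparison asks how the MII transcriptome differs when it is deleted during oocyte growth. The design names 4 oocytes per genotype, and 3 WT oocytes were analysed here. No animal, strain, age or sequencing lane is given for an oocyte. A genotype therefore counts as 1 sample, no test is made, and the SD (n = 3 WT, n = 4 KO) is the spread between single oocytes, biological and technical together.

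The oocytes had 15340782 to 25940519 reads in genes, and 6959 to 7286 genes reached an FPKM of 1 in WT oocytes against 7664 to 8222 in KO oocytes. Hira stood at FPKM 0.312, 0.347 and 0.291 in WT1, WT2 and WT4 and at 0.0941, 0.0955, 0.0242 and 0.0997 in KO1 to KO4, so every KO oocyte was below every WT oocyte, at a mean of 24.7% of WT. These are low levels, below the filter, on 35 to 55 reads per WT oocyte and 5 to 17 per KO oocyte. All 9 oocyte markers were above the filter, and their summed FPKM was 6150 to 6854 in WT oocytes and 4277 to 4514 in KO oocytes. Gdf9, Bmp15 and Oosp1 carry most of that sum. Of the 9, 4 were over 1.5-fold lower as deposited, where 7.92% of all genes above the filter were. After median-ratio scaling 4 were lower, where 10.7% of all genes above the filter were, and after quantile normalization 1 was. Ooep (log2 difference 0.28), Mos (0.14) and Nlrp5 (0.03) had positive differences as deposited. Of 18 marker genes of cumulus and granulosa cells, 14 averaged below FPKM 1 in each genotype, and Lhcgr, Amh, Amhr2, Foxl2, Tnfaip6 and Gja1 were listed at 0 in all 7 oocytes. The 4 above the filter were Cyp19a1, Nr5a2, Kitl and Fshr. Cyp19a1 averaged FPKM 22.0 in WT and 24.6 in KO oocytes, with overlapping genotypes. Nr5a2 (means 2.53 and 7.25) and Kitl (3.11 and 4.52) were higher in every KO oocyte than in any WT oocyte. Fshr was detected only in KO2, KO3 and KO4, with FPKM 2.99, 4.34 and 4.51. The summed level of all 18 markers was 26.9 to 29.0 in WT oocytes and 37.1 to 42.4 in KO oocytes. Cyp19a1 carried the largest part of it. These sums move with genotype, and their part in the differences below was not tested.

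Promoters are shown for the most abundant of the 10 transcripts, the second most abundant, and the one with the larger read number of the pair that was higher in KO oocytes. Each is the 250 bases before the transcription start from RefSeq (GRCm38.p6), 5′ to 3′ on the gene's strand, with CG dinucleotides in capitals. Pabpn1l is at chr8:122622736-122622985, Zar1 at chr5:72581085-72581334 and Cpeb1 at chr7:81454759-81455008, all on the minus strand.
Pabpn1l: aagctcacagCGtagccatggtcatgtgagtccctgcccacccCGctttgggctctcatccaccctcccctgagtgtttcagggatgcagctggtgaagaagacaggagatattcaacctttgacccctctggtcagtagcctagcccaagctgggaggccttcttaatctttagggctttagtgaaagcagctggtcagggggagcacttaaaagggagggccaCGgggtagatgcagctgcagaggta
Zar1: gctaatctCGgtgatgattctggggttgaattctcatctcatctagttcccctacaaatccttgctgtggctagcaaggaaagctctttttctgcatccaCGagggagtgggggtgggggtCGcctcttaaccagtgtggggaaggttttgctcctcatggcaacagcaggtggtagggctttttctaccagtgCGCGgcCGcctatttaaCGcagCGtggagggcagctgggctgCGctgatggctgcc
Cpeb1: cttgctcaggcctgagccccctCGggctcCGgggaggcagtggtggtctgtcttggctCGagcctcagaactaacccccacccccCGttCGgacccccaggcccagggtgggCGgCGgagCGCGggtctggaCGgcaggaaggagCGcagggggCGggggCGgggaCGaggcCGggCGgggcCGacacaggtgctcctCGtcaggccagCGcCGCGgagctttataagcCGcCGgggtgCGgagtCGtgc
These stretches hold 3 CG dinucleotides in Pabpn1l, 9 in Zar1 and 25 in Cpeb1. Counted over the whole 300-base RefSeq entry, which runs 50 bases past the start, Zar1l has 3, Pabpn1l 5, Pabpc1l 7, Zar1 17, Cpeb1 33 and Lsm14b 40. Ybx2 has 32 and 40 at its 2 annotated starts, and Eif4enif1 has 27, 37, 46 and 42 at its 4. So 4 of the 8 genes lie above and 4 below the median of 22 over the 5949 genes above the filter with an entry. Ddx6 and Eif4e1b are named only.

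The CPE is the sequence through which CPEB1 acts, and 4 mRNAs that are dormant until maturation carried one near the annotated end. The letters searched were TTTTAT and TTTTAAT on the transcript's strand, within 100 bases upstream of, or overlapping, an AATAAA or ATTAAA polyadenylation signal in the last 40 bases of the longest transcript. A CPE and a signal can share letters. The windows are from GRCm38 with GENCODE M21 transcripts, at chr8:22782745-22782774 (plus) for Plat, chr8:40493036-40493057 (minus) for Cnot7, chr2:118641563-118641591 (plus) for Bub1b and chr14:30527019-30527048 (plus) for Dcp1a. Capitals mark the CPE and, where it falls inside the window, the signal.
Plat: gtatatttataTTTTAATctattttagttt
Cnot7: caTTTTATatcAATAAAaatac
Bub1b: taTTTTATAATAAAatagtttttgttaca
Dcp1a: ttTTTTAATAAAatttcaaaaccaagtttt
Of the 14 dormant mRNAs listed, 13 had a signal and 4 of those a CPE with these letters in that window. Other forms or positions of the element, and other 3′ ends, were not searched, so the rest may still carry one. Of the 10 storage genes, all but Ybx2 had a signal, and 0 of those 9 had these letters in that window of the annotated transcript. The share was 23.7% of 5742 genes above the filter with a signal. Genes with a CPE had a median log2 difference of 0.20, with 22.1% over 1.5-fold higher and 6.84% lower in KO oocytes, and the 4383 without one had 0.18, 22.0% and 7.21%.

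Among the storage genes, Ddx6 and Cpeb1 were higher in KO oocytes by more than 1.5-fold, and none was lower by that much on the deposited scale. Zar1l was lower in all 4 KO oocytes than in any WT oocyte, but by less than 1.5-fold. The other 7 had overlapping genotypes. Differences are between means of log2(FPKM + 1), KO minus WT. Of all 8033 genes, 22.6% were over 1.5-fold higher and 7.92% lower. All KO oocytes lay above all WT oocytes for 18.9% of genes, and below them for 8.94%. The filter takes any 3 oocytes, with 4 KO and 3 WT to draw on. A gene seen only in KO oocytes therefore passes more easily than one seen only in WT oocytes. How far that moves these shares was not tested. The storage genes' 2 of 10 higher, and 2 of 10 with every KO oocyte above, are near those shares, and so is the 1 of 10 with every KO oocyte below. The median difference of the 10 was -0.21, against 0.18 over all genes. Scaling each library by the median ratio moved these medians to -0.34 and 0.08, and quantile normalization moved them to -0.27 and 0.00. On the median-ratio scale 2 storage genes were higher and 1 was lower, where 17.7% of all genes were higher and 10.7% lower. The share of all genes over 1.5-fold was not computed after quantile normalization, so counts on that scale have no such reference. No spike-in values were used, so every level is relative to the other RNA of the same oocyte.

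**Figure D1:**
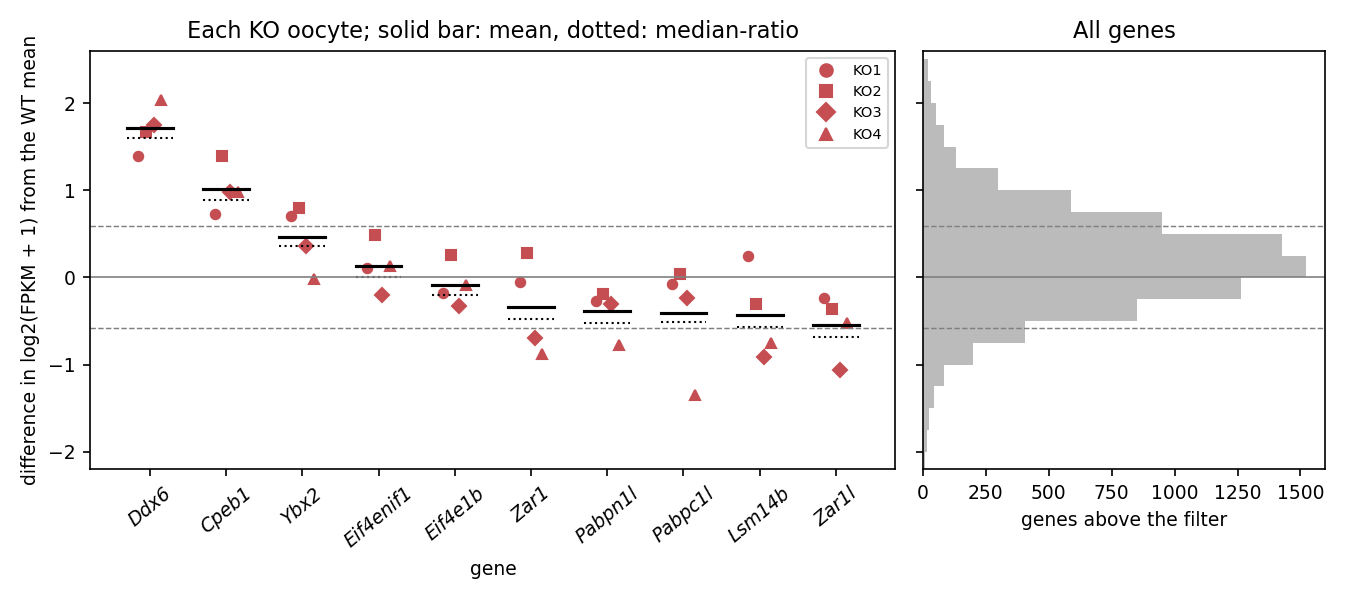
Left, difference in log2(FPKM + 1) of each KO oocyte from the WT mean for the 10 genes, with the mean as a solid bar and the mean after median-ratio scaling as a dotted one. Right, the same difference for all genes above the filter as a histogram; Ddx6 (1.71) and Cpeb1 (1.02) lie above 1.5-fold and the other 8 within it.

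Cpeb1 encodes the CPE-binding protein itself. Its FPKM was 13.7, 9.22 and 7.70 in WT1, WT2 and WT4 and 17.1, 27.6, 20.5 and 20.6 in KO1 to KO4. All 4 KO oocytes were above the highest WT oocyte, with KO1 closest to WT1. The means were 10.2 ± 3.12 (SD, n = 3) and 21.4 ± 4.44 (SD, n = 4), a ratio of 2.10 and a log2 difference of 1.02. It rested on 955 to 1901 reads per WT oocyte and 2245 to 4482 per KO oocyte.

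Ddx6 encodes an RNA helicase that represses translation and helps form mRNA particles. Its FPKM was 1.32, 2.31 and 1.36 in WT1, WT2 and WT4 and 5.90, 7.34, 7.85 and 9.76 in KO1 to KO4. No KO oocyte came near the WT range, whose highest value was that of WT2, and KO1 was the lowest of the KO oocytes. The means were 1.67 ± 0.559 and 7.71 ± 1.60, a ratio of 4.63 and a log2 difference of 1.71. The reads were 165, 340 and 152 in the WT oocytes and 698, 1070, 1503 and 1545 in the KO oocytes. Of the gene's 50-base stretches 4.49% also occur elsewhere, and its copy Gm13410 was listed at 0 in all 7 oocytes. Among the 10 genes Ddx6 ranked 9 or 10 by level in WT oocytes and 7 or 8 in KO oocytes.

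Zar1 and Zar1l encode related zinc-finger proteins that bind maternal mRNA. Zar1 stood at FPKM 186, 58.3 and 103 in WT1, WT2 and WT4 and at 100.4, 126, 64.0 and 56.1 in KO1 to KO4. The genotypes overlapped widely, and the 3.18-fold range among the WT oocytes exceeded the difference between the means, 116 ± 64.5 and 86.6 ± 32.6 (log2 difference -0.34). Of its 50-base stretches 22.8% occur elsewhere, in Gm15847 and Gm42668. Gm15847 had at most 14 reads in an oocyte, and Gm42668 was not analysed here. Zar1l stood at 41.8, 30.3 and 31.5 in the WT oocytes and 28.9, 26.3, 15.8 and 23.5 in the KO oocytes. All 4 KO oocytes were below the lowest WT oocyte, with a small gap between KO1 and WT2. Its means were 34.5 ± 6.31 and 23.6 ± 5.65, a KO level at 68.4% of WT and a log2 difference of -0.55, which was -0.68 after median-ratio scaling and -0.67 after quantile normalization, both past 1.5-fold.

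Lsm14b, Ybx2 and Eif4enif1 encode other parts of the silencing particle: an Sm-like protein that binds DDX6, a cold-shock domain protein that coats maternal mRNA, and the 4E-T protein, which binds the cap-binding protein eIF4E. Lsm14b stood at 49.3, 47.5 and 39.6 in WT1, WT2 and WT4 and 53.9, 36.3, 23.6 and 26.5 in KO1 to KO4. Of the KO oocytes, 3 were below every WT oocyte and KO1 was above them all, so that means of 45.5 ± 5.14 and 35.1 ± 13.7 (log2 difference -0.43) did not separate. Ybx2 had the lowest mean over the 7 oocytes, although Ddx6 was lower in the WT mean and Pabpc1l in the KO mean. It stood at 6.10, 1.90 and 2.82 in the WT oocytes and 5.999, 6.42, 4.51 and 3.24 in the KO oocytes. WT1 was as high as KO1, and the means were 3.61 ± 2.21 and 5.04 ± 1.46 (log2 difference 0.46). Without WT1 every KO oocyte was above the remaining WT oocytes, and the log2 difference was 0.83, past 1.5-fold. Without WT2 the Ybx2 difference was 0.18, and after quantile normalization of all 7 oocytes it was 0.22. Eif4enif1 stood at 12.4, 8.99 and 13.1 in the WT oocytes and 12.3, 16.4, 9.72 and 12.5 in the KO oocytes. Its means, 11.5 ± 2.21 and 12.7 ± 2.73, lay within the spread of either genotype (log2 difference 0.13).

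Eif4e1b, the oocyte cap-binding protein, stood at FPKM 5.27, 5.76 and 5.94 in WT1, WT2 and WT4 and 4.88, 6.95, 4.31 and 5.23 in KO1 to KO4. The WT oocytes were within 1.13-fold of each other, the narrowest range of the 10, and lay inside the KO range. The means were 5.65 ± 0.346 and 5.34 ± 1.14 (log2 difference -0.08). Of its 50-base stretches 5.38% occur elsewhere, and the copy Gm5705 had 2 to 19 reads against 521 to 914 for Eif4e1b.

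Pabpc1l (also called ePAB) and Pabpn1l bind poly(A) tails. Pabpc1l stood at 9.66, 3.05 and 7.30 in WT1, WT2 and WT4 and 5.74, 6.32, 5.01 and 1.79 in KO1 to KO4. The KO oocytes lay between the WT values except KO4, which was below WT2, and the means were 6.67 ± 3.35 and 4.71 ± 2.02 (log2 difference -0.40). That difference was -0.51 after median-ratio scaling and -0.64, past 1.5-fold, after quantile normalization. It was -0.09 without KO4 and -0.81 without WT2. Pabpn1l stood at 202, 269.5 and 364 in the WT oocytes and 224, 237, 218 and 158 in the KO oocytes. WT2 and WT4 were above every KO oocyte and WT1 was below 3 of them, with means of 278 ± 81.6 and 209 ± 35.4 (log2 difference -0.39).

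The levels of the 10 transcripts spanned a wide range within each oocyte. Pabpn1l was the most abundant, above 98.2% of the genes past the filter, followed by Zar1, above 95.4%. Ybx2 stood above 46.0%. Pabpn1l was above Zar1 and Zar1 above Lsm14b in 7 of 7 oocytes, and their ranges did not overlap in either genotype. Lsm14b was also above Zar1l in 7 of 7, although their ranges overlapped. Further down, neighbours overlapped in at least 1 genotype: Zar1l was above Cpeb1 in 5 of 7 oocytes, Cpeb1 above Eif4enif1 in 6 of 7, Pabpc1l above Eif4e1b in 4 of 7 and Ddx6 above Ybx2 in 4 of 7. Eif4e1b was above Ddx6 in 3 of 7 oocytes, which were the 3 WT oocytes, and below it in all 4 KO oocytes. Each KO oocyte was set against the WT mean of each gene, and each WT oocyte against the mean of the other WT oocytes. The KO oocytes did not place the 10 genes on 1 side of that reference. In KO2, 7 of the 10 were above it, with a median deviation of 0.27 on the log2 scale. In KO3 and KO4, 7 of the 10 were below it, with medians of -0.27 and -0.31. In KO1, 5 were above and 5 below. Among the WT oocytes, 7 of the 10 were above it in WT1 (median 0.30) and 7 below it in WT2 (-0.20). The summed FPKM of the 10 was 513 ± 70.9 in WT and 412 ± 81.6 in KO oocytes, and the genotypes overlapped.

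**Figure D2:**
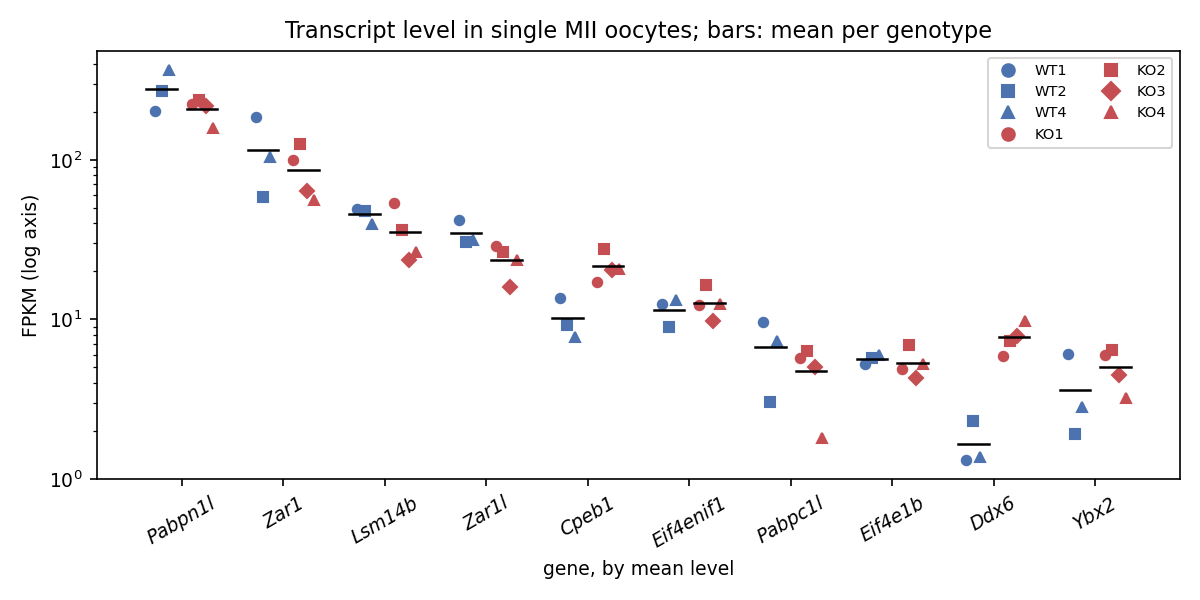
FPKM (log axis) of the 10 genes in each of the 7 oocytes, ordered by mean level, with bars at the mean of each genotype. Pabpn1l, Zar1 and Lsm14b are the 3 highest in every oocyte, and the genotypes are apart for Cpeb1, Ddx6 and Zar1l.

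Most of these genes have relatives expressed in other tissues, and the share of a family's summed FPKM shows which form an oocyte holds most of. Cpeb1 supplied 38.5%, 41.8% and 39.3% of the FPKM of the 4 Cpeb genes in WT1, WT2 and WT4, and 44.7%, 56.7%, 50.1% and 49.7% in KO1 to KO4. The genotypes did not overlap, with means of 39.9% ± 1.74 and 50.3% ± 4.91. The remaining families overlapped between genotypes. Pabpn1l supplied nearly all of the FPKM of the Pabpn1 pair in every oocyte, Zar1 74.7% ± 8.09 in WT and 77.8% ± 5.28 in KO oocytes of its pair, and Lsm14b 25.4% ± 4.02 and 21.5% ± 3.70 of its pair with Lsm14a. Pabpc1l supplied 35.3% ± 12.5 and 26.6% ± 11.2 of its family. Ybx2 supplied 9.87% ± 2.39 and 7.06% ± 1.75, and Eif4e1b 3.36% ± 0.598 and 2.38% ± 0.544. Some relatives share sequence with other loci, and how their reads were divided is not given in the sources used here: 70.7% of the 50-base stretches of Pabpc4, 27.3% of Pabpn1, 25.1% of Ybx1 and 20.7% of Pabpc1 occur elsewhere. For Eif4e3 it was 12.8% and for Eif4e 7.16%. On the same strand, Gm20521 overlaps 651 of the 3035 exonic bases of Pabpn1, and Gm20696 overlaps 373 of the 2515 of Eif4e3. The shares of Pabpn1l and Eif4e1b depend on how those reads were assigned.

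**Figure D3:**
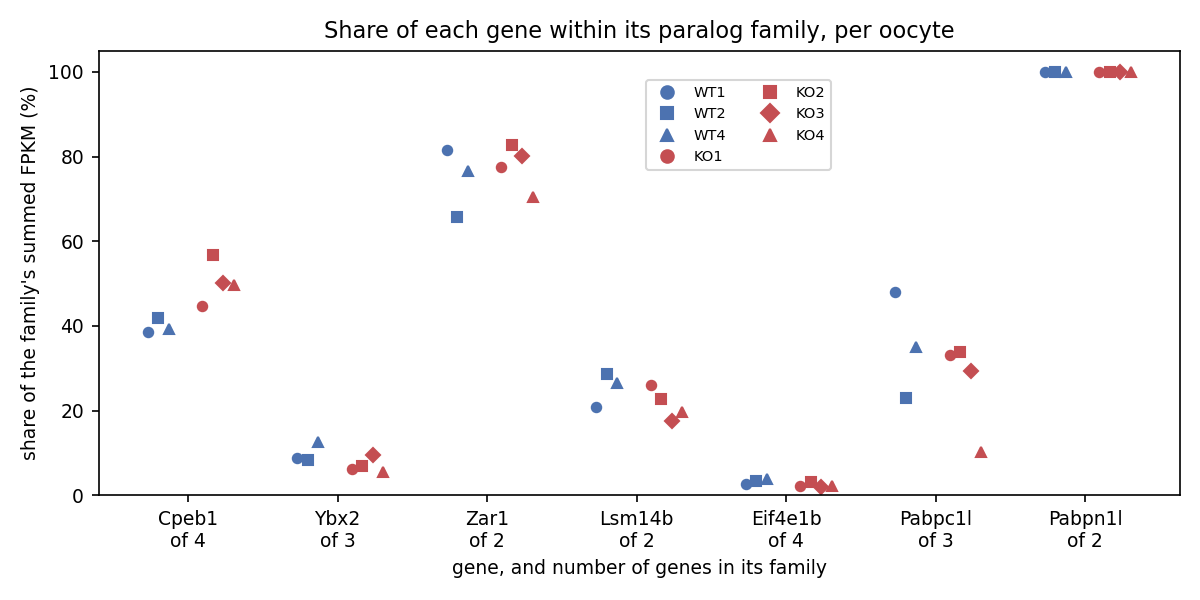
Share (%) of each gene in the summed FPKM of its paralog family, per oocyte, with the number of genes in the family under each name. The genotypes are apart for Cpeb1 and overlap in the other families.

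Ratios between members within 1 oocyte do not depend on a scaling factor of the library. The pairs were chosen after the values were seen, so they are a description. Per 100 FPKM of Lsm14b, whose protein binds DDX6, there were 2.68, 4.86 and 3.44 FPKM of Ddx6 in WT1, WT2 and WT4 and 10.9, 20.2, 33.2 and 36.8 in KO1 to KO4. No oocytes of the 2 genotypes overlapped, with means of 3.66 ± 1.11 and 25.3 ± 11.9. Per 100 FPKM of Eif4enif1 the Ddx6 level was 15.6 ± 8.77 and 62.8 ± 19.1, and per 100 of Zar1 it was 1.998 ± 1.73 and 10.3 ± 5.60. Cpeb1 stood at 10.2 ± 4.84 and 26.9 ± 9.03 per 100 of Zar1, and at 4.11 ± 2.42 and 10.4 ± 2.40 per 100 of Pabpn1l. The genotypes did not overlap in these ratios either. Over all 45 pairs of the 10 genes, the genotypes did not overlap in 17. Of the 17 pairs with Ddx6 or Cpeb1, 14 were apart, and of the 28 others 3 were: Ybx2 with Zar1, Ybx2 with Pabpc1l, and Zar1l with Eif4enif1. Ddx6 and Cpeb1 were already apart on their own, so their pairs largely restate that difference. The same share over pairs of all genes was not computed. Zar1 per 100 of Lsm14b overlapped, at 253 ± 127 and 254 ± 71.3.

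**Figure D4:**
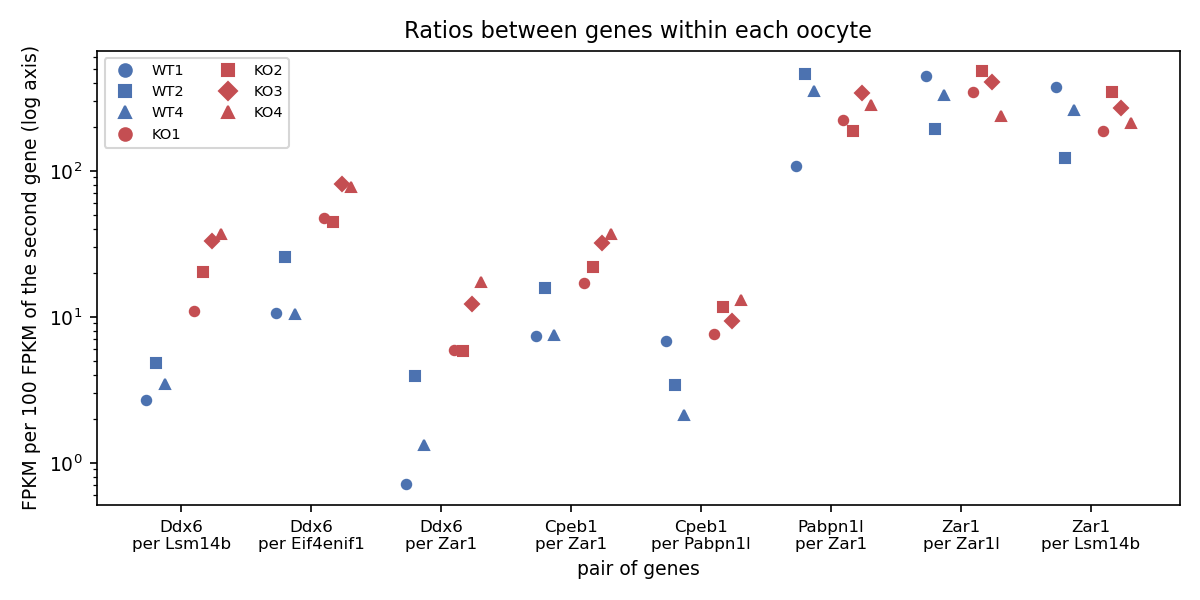
FPKM of the first gene per 100 FPKM of the second (log axis) in each oocyte. The 5 ratios with Ddx6 or Cpeb1 as first gene separate the genotypes, and the 3 plotted among Pabpn1l, Zar1, Zar1l and Lsm14b do not.

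The 6 lists of related genes hold the rest of the pathway. Counts are on the deposited scale, and those that scaling moved are given beside them. They are to be read beside the shares of all 8033 genes above the filter. As deposited, 22.6% were over 1.5-fold higher and 7.92% lower, and after median-ratio scaling 17.7% and 10.7%. For quantile normalization no such share was computed. Of 12 paralogs of the members, 9 were above the filter, and 4 were over 1.5-fold higher and 0 lower (median log2 difference 0.49). After median-ratio scaling 3 were higher. Pabpc1, the general cytoplasmic poly(A)-binding protein, stood at FPKM 0.671 ± 0.398 in WT and 4.43 ± 1.41 in KO oocytes (log2 difference 1.69). Among the WT oocytes only WT4 reached FPKM 1, so Pabpc1 passed the filter mainly through the KO oocytes. Ybx3, a relative of Ybx2, stood at 24.3 ± 18.8 and 51.3 ± 20.4 (1.203), with overlapping genotypes. Both largest negative differences were within 1.5-fold: Pabpc4 at -0.30 and Lsm14a at -0.13.

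Of 17 genes that lengthen or trim poly(A) tails, 15 were above the filter, with 4 higher, 1 lower and a median of 0.03. After either scaling 3 were higher. Sympk, a scaffold of the cleavage and polyadenylation machinery, stood at 0.788 ± 0.288 and 3.04 ± 0.831 (log2 difference 1.17), and Tent4a, a non-canonical poly(A) polymerase, at 47.5 ± 13.4 and 88.9 ± 11.9 (0.91). Sympk reached FPKM 1 in WT2 alone among the WT oocytes, so it passed the filter mainly through the KO oocytes. Papolg, a nuclear poly(A) polymerase, was the lower one, at 16.5 ± 1.82 and 10.05 ± 2.65 (-0.69). Wdr33, which binds the AAUAAA signal, differed by -0.28.

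Of 28 further RNA-binding regulators, 24 were above the filter, with 3 higher, 2 lower and a median of 0.25. After quantile normalization 1 was higher and 2 were lower, with a median of 0.09. Patl2, an oocyte repressor of translation, stood at 3.80 ± 1.69 and 7.41 ± 3.32 (log2 difference 0.79, with overlapping genotypes), and G3bp1, a stress granule protein, at 0.886 ± 0.177 and 2.22 ± 0.393 (0.77). G3bp1 was below FPKM 1 in every WT oocyte and passed the filter only through the KO oocytes. It had 135 to 167 reads per WT oocyte and 385 to 507 per KO oocyte. Msi2, a Musashi protein, stood at 3.01 ± 1.18 and 0.967 ± 0.602 (-1.03), and Elavl1, which binds AU-rich elements, at 25.8 ± 10.2 and 14.5 ± 1.48 (-0.71), with overlapping genotypes.

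Of 9 genes of the cap complex and its inhibitors, 7 were above the filter, with 3 higher, 0 lower and a median of 0.53. Eif4ebp1, which blocks eIF4E, stood at 0.543 ± 0.490 and 2.12 ± 1.07 (log2 difference 1.01), and Eif4g1, the scaffold of the cap complex, at 2.95 ± 0.897 and 5.08 ± 0.326 (0.64). Eif4ebp1 was below FPKM 1 in every WT oocyte, so it passed the filter only through the KO oocytes. It rested on 19, 16 and 0 reads in WT1, WT2 and WT4 and 19, 82, 71 and 42 in KO1 to KO4. After median-ratio scaling or quantile normalization, 1 of these 7 was higher rather than 3, and that 1 was Eif4ebp1. Paip1, which binds poly(A)-binding protein, was far more abundant, at 1014 ± 175 and 815 ± 88.0 (-0.31), and Paip2 differed by 0.04. Of 13 decapping genes, 10 were above the filter, with 2 higher, 0 lower and a median of 0.28. After quantile normalization 1 was higher. Both were Lsm proteins, Lsm1 at 32.2 ± 5.50 and 67.9 ± 12.6 (1.05) and Lsm2 at 2.86 ± 1.24 and 5.62 ± 1.27 (0.82). Lsm5 differed by -0.06 and Dcp1a by 0.16.

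All 14 mRNAs known to be recruited for translation at maturation were above the filter, with 0 higher, 2 lower and a median of 0.07. After quantile normalization 2 were higher (Slbp at 0.69 and Dazl at 0.63) and 2 lower. Btg4, which links the deadenylase to maternal mRNA, stood at 3548 ± 271 and 2148 ± 136 (log2 difference -0.72), and Cnot7, a deadenylase subunit, at 80.8 ± 6.98 and 52.4 ± 2.31 (-0.61). Slbp, which binds histone mRNA, stood at 350.2 ± 41.0 and 475 ± 64.8 (0.43), and Dazl, an RNA-binding translation regulator, at 383 ± 43.6 and 509 ± 83.3 (0.40). The cDNA was made from whole cells with a kit that primes on poly(A), so a difference in transcript number and one in tail length cannot be told apart for any of these mRNAs.

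**Figure D5:**
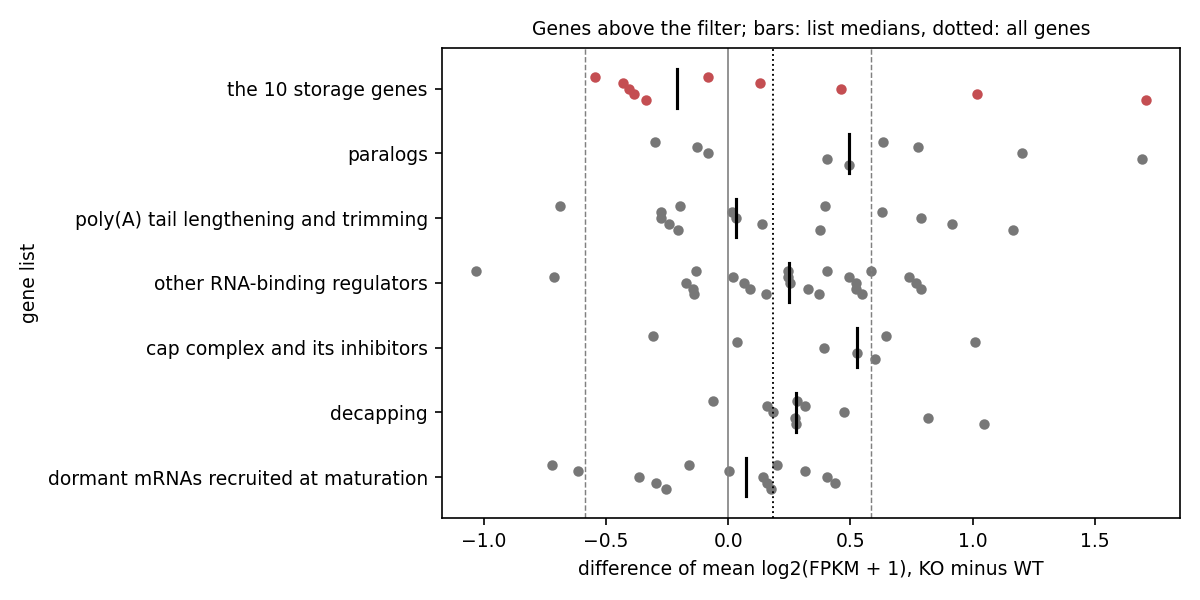
Difference between genotypes (KO minus WT, mean log2(FPKM + 1)) for each gene above the filter in the 10 storage genes and the gene lists, with a bar at each list's median and a dotted line at the median of all genes (0.18). The storage genes have a median of -0.21, with Ddx6 and Cpeb1 at the upper end.

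The genes whose profile over the 7 oocytes was closest to that of Ddx6, among 8023 others, were ENSMUSG00000090969, Shmt1 and Chrna1. Their root mean square distances, between log2 profiles each centred on its own mean, were 0.171, 0.178 and 0.183, against a median of 0.862 over all those genes. Their mean FPKM was 0.595, 0.0175 and 0.377 in WT and 3.65, 2.63 and 2.90 in KO oocytes, so they passed the filter mainly through the KO oocytes and the likeness restates the difference between genotypes. For Pabpn1l they were Utp6, Gucy2c and Cpsf3, at 0.135, 0.141 and 0.145 against a median of 0.531.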

How the data were processed

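RNA of single MII oocytes was converted to cDNA, amplified and sequenced. The authors deposited unlogged FPKM for each oocyte and Ensembl gene. Per the submitters' processing notes the tools were edgeR 3.1.10, HTSeq, Bowtie2, Bowtie 0.12.8, TopHat and TopHat2 2.0.2 with mm9, whose roles are not given in the sources used here. Symbols came from GENCODE M21 and named 97.4% of genes above the filter. Read counts were recovered from the FPKM as the smallest whole numbers that fit, within 0.01, for all 18300 genes with a value. For 2437 genes seen in 1 library the count is undetermined.

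No test was made, since a library is 1 oocyte of an animal that the labels do not name. The filter kept genes that reached FPKM 1 in 3 or more oocytes. Differences are the KO mean of log2(FPKM + 1) less the WT mean. The call is a difference over 1.5-fold. Fold differences of low genes are understated on this scale. The alternatives were median-ratio scaling, quantile normalization, pseudocounts of 0.1 and 5, no filter, a filter at FPKM 10, and leaving out each oocyte. Recovery was tested on simulated data.

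The members and lists were chosen with earlier results of these data known. All 10 members are named. From each pathway list the 2 highest and the 2 lowest differences are named, and in the cap complex and decapping lists the second lowest is above 0. For the member that differed most and the most abundant member, the 3 genes with the smallest root mean square distance between centred log2 profiles are named. Other genes were named after their values were seen. Python 3.11.15, numpy 2.4.6, pandas 2.3.3 and matplotlib 3.10.9 were used.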

Additional observations from a re-analysis of the deposited data

Results flagged for a closer look

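The share of Eif4e1b in the summed FPKM of the 4 Eif4e genes was 3.189% in KO2, while KO1, KO3 and KO4 stood at 2.14%, 2.02% and 2.17%. The gap from KO2 to the nearest of them was 0.866 of the whole range of the 4 KO oocytes. KO2 lay within the WT range of shares. Among 18 groups looked at, chance marks about 1 in 20.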

How the results depend on the processing

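Cpeb1 and Ddx6 stayed over 1.5-fold higher under all 11 alternatives run for single genes, with log2 differences of 0.80 to 1.23 and 0.93 to 2.17. The number of storage genes higher, and of those with every KO oocyte above every WT oocyte, was 2 and became 1 with a filter at FPKM 10, which keeps 6 of the 10 and drops Ddx6. Both became 3 without WT1, and the number higher also with a pseudocount of 0.1 and without KO4, where Ybx2 passed 1.5-fold (0.83, 0.59 and 0.62). The number lower was 0 as deposited, 1 after median-ratio scaling (Zar1l) and 2 after quantile normalization (Zar1l, Pabpc1l). It was 0 to 3 when 1 oocyte was left out: 2 without KO1 (Lsm14b, Zar1l), 1 without KO2 (Zar1l), 1 without WT1 (Pabpn1l), 3 without WT2 (Zar1, Zar1l, Pabpc1l) and 1 without WT4 (Zar1l). The number with every KO oocyte below every WT oocyte was 1 and ranged from 1 to 2 when 1 oocyte was left out, with 2 without KO1, KO2, WT1 or WT2. The median difference of the 10 ranged from -0.36 (filter at FPKM 10) to -0.02 (without WT1). The sign changed for Zar1 without WT1 (0.08) and for Eif4enif1 with quantile normalization (-0.04) and without WT2. The cause was not tested. No paired analysis was possible because no test was made and the labels tie no oocytes to each other. Single oocytes without animals, amplified cDNA without molecular identifiers and relative levels limit every value.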
